A study of Homo sapiens with 6 samples.

Results

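Nuclear genes encoding chaperones and proteases of the mitochondrial matrix and inner membrane were followed in SaOS-2 cells after induction of p21. The genes were LONP1, CLPP, CLPX, HSPD1, HSPE1, HSPA9, YME1L1, AFG3L2, SPG7 and TRAP1. They were chosen by symbol, and all 10 were found among the 23228 rows of the expression table. SaOS-2 is an osteosarcoma line that lacks RB and p53, and the cells carried a Tet-inducible p21 vector. PolyA RNA was sequenced in 6 libraries. The 3 p21 OFF libraries were of cells without treatment, and the 3 p21 ON libraries of cells kept for 24 h in doxycycline at 1 μg/ml. The vector was present in both groups, and no library of cells given doxycycline without p21 induction was analysed here, so the drug and p21 cannot be told apart in any value below. The study calls its sequencing replicates biological, but the labels do not say whether the 3 libraries of a group were separate cultures, and p-values then measure the spread between these samples.

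Most mitochondrial proteins are made in the cytosol and imported unfolded. HSPA9 (mortalin, the mitochondrial Hsp70) pulls them into the matrix, and the HSPD1-HSPE1 chaperonin (Hsp60 with its lid Hsp10) folds them. LONP1 and the ClpXP complex, made of the peptidase CLPP and the unfoldase CLPX, degrade damaged matrix proteins. YME1L1 and the AFG3L2-SPG7 complex are proteases of the inner membrane. Tetracyclines inhibit the bacterial type of ribosome that mitochondria use, and an imbalance between imported and locally made subunits is a classic trigger of the mitochondrial unfolded protein response, in which several of these 10 genes are known to be induced. The 10 genes were therefore compared between p21 ON and p21 OFF as a possible readout of mitochondrial protein stress under doxycycline. The drug and p21 changed together, and neither mitochondrial translation nor protein stress was measured in these libraries.

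None of the 10 genes was called higher in p21 ON cells. HSPE1, HSPD1 and HSPA9 were called lower, with changes in the mean of -45.8%, -18.6% and -13.6%. The Hsp90-type chaperone TRAP1 and the 6 protease genes did not pass the test in either direction. Genes were tested with limma on log2(normalized count + 1), provided that they averaged 10 or more normalized counts over the 6 libraries, and were called at an adjusted p below 0.05. All 10 genes were among the 13255 that entered this test. Of those 13255 genes 12.7% (1681) were lower and 10.5% (1393) higher, a split that turned to 1194 lower and 2034 higher when the libraries were scaled by their size alone. Of the 10 genes, 9 had a mean of at least 500, and of the 6466 genes at that level 18.1% were lower and 9.34% higher. HSPE1 was the 1 gene below that level, where 7.48% of 6789 genes were lower and 11.6% higher. Of the 3 called genes, HSPD1 and HSPA9 thus stood at the higher level. At an unadjusted p under 0.05 limma gave 4 of the 10 as lower and 0 as higher. The share of all genes at that unadjusted threshold was not counted, and the shares above, at an adjusted p, cannot be set against it. At the adjusted threshold edgeR, DESeq2 and limma-voom on the reads behind the values each called 3 lower and 0 higher. The median log2 fold change was -0.10 over the 10 genes and 0.0056 over all genes tested.

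**Figure D1:**
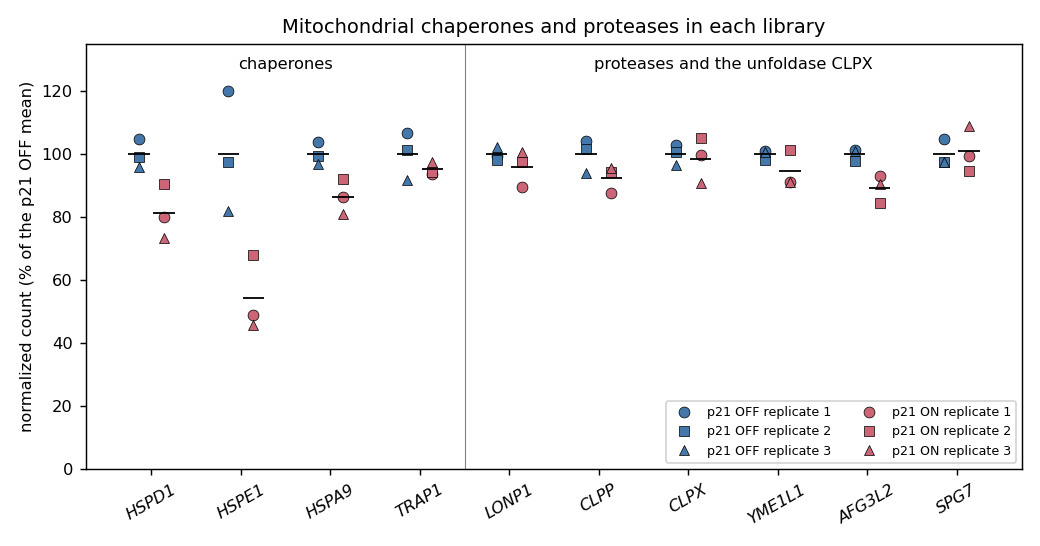
Normalized counts of the 10 genes in each library, as a percentage of the p21 OFF mean of that gene (vertical axis); blue symbols are p21 OFF, red symbols p21 ON, and horizontal bars group means of 3 libraries. HSPD1, HSPE1, HSPA9 and AFG3L2 have all p21 ON symbols below all p21 OFF symbols, while the other 6 genes overlap between the groups.

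The induction itself was clear in every library. CDKN1A, the gene of p21, had 1187 to 1355 normalized counts with p21 OFF and 40470 to 46739 with p21 ON, and reads of the vector cannot be told apart from those of the gene. The libraries held 12795490 to 21975045 reads on genes, and the 10 genes together took 0.117 to 0.126% of them with p21 OFF and 0.108 to 0.117% with p21 ON. The osteoblast-lineage genes RUNX2, SP7, ALPL and COL1A1 had group means of 3403 normalized counts or more, whereas SPP1 stayed below 3 in each library and BGLAP was listed at 0. IBSP, another gene of this lineage, was called lower (-0.38, limma adjusted p = 0.0264), a call that was lost with DESeq2, without the filter, with the length trend removed and without any 1 of the p21 ON libraries or p21 OFF replicate 1. Of the markers of other lineages, PTPRC, CD3E, CDH5, CDH1 and DES had means below 8 and PECAM1 and MYOD1 below 14, while the epithelial gene EPCAM had 330 ± 38.9 with p21 OFF and 313 ± 18.6 with p21 ON (mean ± SD, n = 3), and 0 of the 3 tested were called.

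HSPD1 and HSPE1 lie on opposite strands of chromosome 2, HSPD1 from 198351308 to 198381461 on the minus strand of GRCh37 and HSPE1 from 198364864 to 198368173 on the plus strand, within the span of the longest HSPD1 annotation. The proximal RefSeq start of HSPD1 and that of HSPE1 are head to head, 539 bases apart, and the DNA between them lies upstream of both. The part nearest HSPD1 is shown here because both chaperonin genes were called lower, a choice made after the values were seen. The 250 bases before the proximal HSPD1 start (RefSeq, GRCh38.p14, chr2:197499841-197500090, minus strand, 5′ to 3′) read as follows, with an 18-base run of heat shock element units in capitals.
HSPD1 promoter: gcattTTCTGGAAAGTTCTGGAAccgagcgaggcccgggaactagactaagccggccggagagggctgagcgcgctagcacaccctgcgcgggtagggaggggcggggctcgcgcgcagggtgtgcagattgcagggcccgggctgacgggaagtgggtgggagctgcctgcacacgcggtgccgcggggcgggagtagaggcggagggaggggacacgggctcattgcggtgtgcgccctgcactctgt

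The capitals hold 4 alternating GAA and TTC units, from -245 to -228 of the HSPD1 start, and they end 294 bases from the HSPE1 start. Heat shock elements of this kind are bound by HSF1, the main factor of the heat shock response. A 3-unit element (GAA, TTC and GAA with 2 free bases between units, both strands, overlapping matches allowed) was present in 0.490% of 35116 RefSeq promoter windows of 300 bases. Promoter windows were at hand for 8 of the 10 genes, 11 windows in all, and 1 of them, that of HSPD1, held the 3-unit element. HSPA9 held one 2-unit match (TTC and GAA with 2 free bases between them, in 7.74% of all windows) from -4 to 4 around its start. The C/EBP-ATF response element (searched on both strands), known from ATF4 and CHOP target genes, was in 3.62% of all windows and in 0 of the 11. A match of letters is a description and no evidence of binding. CLPP and YME1L1 had no window.

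HSPD1 had 4578, 4318 and 4190 normalized counts in p21 OFF replicates 1, 2 and 3, and 3496, 3950 and 3204 in p21 ON replicates 1, 2 and 3. The groups were fully separated, with the highest p21 ON library under the lowest p21 OFF library. The log2 fold change was -0.30 (SE 0.07, limma adjusted p = 0.00572). It stayed between -0.38 and -0.23 with each library left out in turn, and without p21 ON replicate 3 the gene was no longer called (-0.23, limma adjusted p = 0.0537). GENCODE annotates 18 genes named as pseudogenes of HSPD1, and reads that map equally well to one of them may be missing from the count.

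HSPE1 showed the largest change of the 10 genes. Its normalized counts were 172, 140 and 118 with p21 OFF against 69.8, 97.5 and 65.6 with p21 ON, with no overlap. The means were 143 ± 27.4 and 77.6 ± 17.3 (mean ± SD, n = 3), a log2 fold change of -0.88 (SE 0.16, limma adjusted p = 0.000965). HSPE1 was called lower in each of the 18 alternative fits, with log2 fold changes from -1.05 to -0.74. The values rest on few reads, 137, 179 and 159 with p21 OFF and 60, 80 and 69 with p21 ON. Its exons are shared in part with the read-through gene HSPE1-MOB4, which covers 192 of the 557 bases of the canonical HSPE1 transcript and is listed at 0 in all 6 libraries under the older name HSPE1-PHOCN. How the counting treated reads that fit both genes is not given in the sources used here, and 26 named HSPE1 pseudogenes are annotated. Exons of HSPD1 on the opposite strand cover 7.4% of the HSPE1 exon bases, and the strand setting of the counting is not given either. The level of HSPE1 is therefore uncertain, and how these features bear on its fold change was not tested.

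HSPA9 (chromosome 5, 137889445 to 137911364) had 4095, 3918 and 3817 normalized counts with p21 OFF and 3404, 3631 and 3192 with p21 ON. The groups did not overlap, and the log2 fold change of HSPA9 was -0.21 (SE 0.06, limma adjusted p = 0.0202). The call was lost without p21 ON replicate 1 (-0.21, adjusted p = 0.0827), without p21 ON replicate 3 (-0.17, adjusted p = 0.112) and under scaling by library size alone (-0.17, adjusted p = 0.0584, all from limma).

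Within each group 3 of the 4 chaperones followed one order of libraries. HSPD1, HSPE1 and HSPA9 were each highest in p21 OFF replicate 1 and lowest in p21 OFF replicate 3, and among the p21 ON libraries highest in replicate 2 and lowest in replicate 3. CLPX shared this order, whereas TRAP1 and the other 5 genes did not. Of all genes tested 4.68% had it. In the lists described below it was shared by 2 of 8 cofactor and import motor genes and 2 of 14 mitochondrial content genes. It was also shared by 1 of 20 import channel genes, 1 of 11 cytosolic and ER chaperones and 0 of 13 further proteases. The order was noticed in the data and defined from HSPD1, HSPE1 and HSPA9, so their own match was fixed in advance. It is the inverse of the order by depth in both groups, with 12795490, 20914151 and 21975045 reads on genes in p21 OFF replicates 1, 2 and 3 and 13440402, 12918390 and 16630552 in p21 ON replicates 1, 2 and 3. The part of depth in these values was not tested.

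TRAP1 lies on chromosome 16 from 3701640 to 3767554. Its normalized counts were 2225, 2111 and 1917 with p21 OFF and 1953, 1969 and 2031 with p21 ON, so the groups overlapped. The log2 fold change was -0.07 with a 95% interval from -0.20 to 0.07 (limma adjusted p = 0.473). Exons of DNASE1 on the opposite strand cover 28.5% of the TRAP1 exon bases, and the strand setting of the counting is not given in the sources used here.

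None of the protease genes was called in either direction. LONP1 (chromosome 19, 5691845 to 5720583) encodes the Lon protease of the matrix, a gene often used as a marker of mitochondrial stress. It had 2126, 2093 and 2186 normalized counts with p21 OFF and 1916, 2084 and 2149 with p21 ON. Its groups overlapped, and the log2 fold change of -0.06 had a 95% interval from -0.19 to 0.07 (limma adjusted p = 0.511). A rise above 0.07 on the log2 scale lay outside this interval, which belongs to the main scaling. The log2 fold change was -0.02 under scaling by library size alone and -0.01 without p21 ON replicate 1.

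CLPP (chromosome 19, 6361542 to 6370253) had 995, 969 and 896 normalized counts with p21 OFF and 835, 899 and 910 with p21 ON. CLPX (chromosome 15, 65440557 to 65477680) had 747, 732 and 701 against 724, 764 and 661. Both genes overlapped between the groups. The log2 fold changes were -0.11 for CLPP (95% interval -0.26 to 0.03, limma adjusted p = 0.251) and -0.02 for CLPX (95% interval -0.18 to 0.13, adjusted p = 0.849). The sign of CLPX turned positive under scaling by library size alone and without p21 ON replicate 3, with no call in either fit.

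Of the inner membrane proteases, AFG3L2 came closest to the threshold. This subunit of the m-AAA protease (chromosome 18, 12328943 to 12377226) had 1212, 1170 and 1209 normalized counts with p21 OFF and 1113, 1011 and 1084 with p21 ON. All p21 ON libraries were lower, and the log2 fold change was -0.16 (95% interval -0.30 to -0.03, limma adjusted p = 0.0751). It was called in 1 of 18 alternative fits, with a trend over transcript length removed (-0.19, limma adjusted p = 0.0275). Exons of TUBB6 on the opposite strand cover 11.7% of its exon bases.

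SPG7 (paraplegin), the partner of AFG3L2 in the m-AAA protease, lies on chromosome 16 from 89557127 to 89624174. It had 1094, 1020 and 1019 normalized counts with p21 OFF and 1038, 988 and 1136 with p21 ON, and a log2 fold change of 0.01 (95% interval -0.13 to 0.16, limma adjusted p = 0.92). YME1L1, the i-AAA protease (chromosome 10, 27399040 to 27444195), had 3007, 2918 and 2994 against 2715, 3010 and 2708. Of its 3 p21 ON libraries, 2 lay below the p21 OFF libraries and the other above them, and its log2 fold change was -0.08 (95% interval -0.21 to 0.05, limma adjusted p = 0.343). The sign of SPG7 turned negative without p21 OFF replicate 2, p21 OFF replicate 3 or p21 ON replicate 3 and with the length trend removed.

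Over the 4 chaperone genes the median log2 fold change was -0.26, and over the 6 genes of the proteases, CLPX included, it was -0.07. For 4 of the 10 genes every p21 ON library lay below every p21 OFF library, and for 0 above, where all genes tested gave 21.3% below and 19.1% above.

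**Figure D2:**
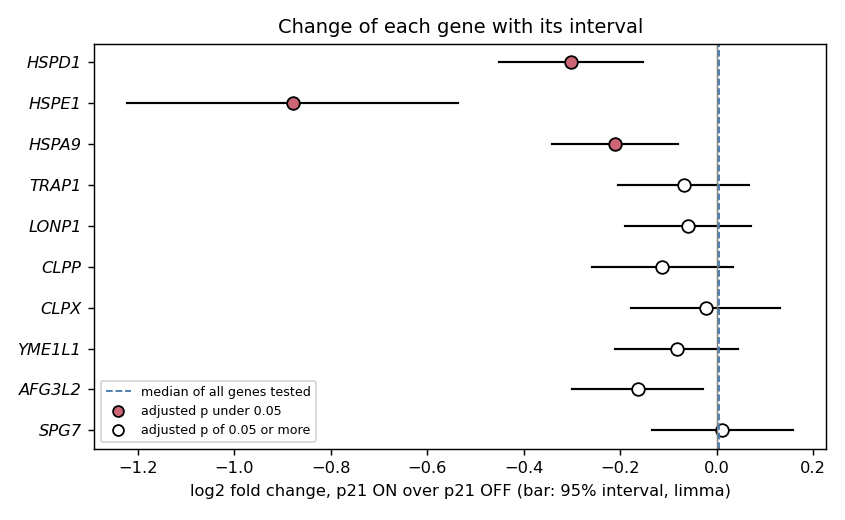
Log2 fold change of each gene, p21 ON over p21 OFF (horizontal axis), with its 95% interval from limma on 3 libraries per group; filled points passed an adjusted p-value of 0.05, and the dashed line is the median of all genes tested at 0.0056. The interval of HSPE1 reaches from -1.22 to -0.54, and the intervals of all protease genes except AFG3L2 include 0.

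Ratios of functionally paired genes were formed within each library, where a common scaling factor cancels. A trend over transcript length does not cancel in such a ratio. The ratio of HSPD1 to HSPE1 was 26.6, 30.9 and 35.6 with p21 OFF against 50.1, 40.5 and 48.9 with p21 ON, a log2 difference of 0.59 without overlap (two-sided exact permutation p = 0.1, the lower limit for 3 libraries against 3). The low read number of HSPE1 enters this ratio. With the length trend removed the log2 fold changes were -0.34 for HSPD1 and -0.75 for HSPE1, against -0.30 and -0.88 in the main fit.

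The ratio of the m-AAA subunits, AFG3L2 over SPG7, was 1.11, 1.15 and 1.19 with p21 OFF and 1.07, 1.02 and 0.954 with p21 ON, without overlap (exact permutation p = 0.1). With the length trend removed the log2 fold changes were -0.19 for AFG3L2 and -0.16 for SPG7, against -0.16 and 0.01 in the main fit. These subunits then lay close together, and the ratio itself was not formed without that trend. TRAP1 over HSP90AB1, its cytosolic relative, went from 0.123 ± 0.0042 to 0.146 ± 0.0086 (mean ± SD, n = 3), also without overlap (exact permutation p = 0.1). CLPX over CLPP, LONP1 over CLPP, YME1L1 over AFG3L2 and HSPA9 over GRPEL1, its nucleotide exchange factor, overlapped between the groups, with log2 differences from 0.02 to 0.09 (exact permutation p from 0.4 to 0.7).

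To set chaperones directly against a protease, the ratios to LONP1 were added after the values had been seen. HSPD1 over LONP1 was 2.15, 2.06 and 1.92 with p21 OFF and 1.82, 1.90 and 1.49 with p21 ON, without overlap (exact permutation p = 0.1). HSPA9 over LONP1 was 1.93, 1.87 and 1.75 against 1.78, 1.74 and 1.48, with overlap (exact permutation p = 0.2). Adjusted over the 9 ratios, the smallest p was 0.225, so no ratio passed a threshold in this permutation design, which could not reach it.

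**Figure D3:**
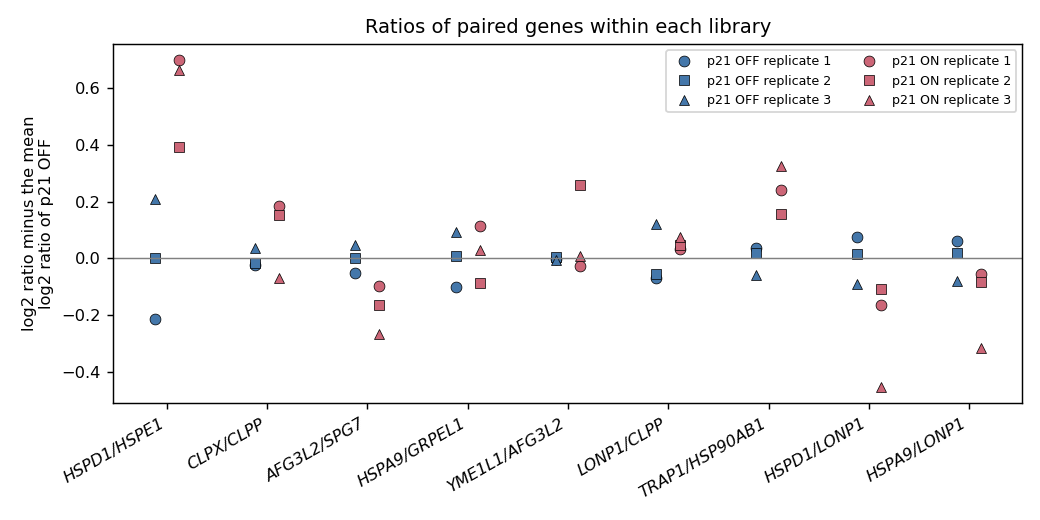
Log2 ratio of 2 genes in each library minus the mean log2 ratio of the p21 OFF libraries (vertical axis), for 9 gene pairs; blue is p21 OFF and red p21 ON, 3 libraries each. HSPD1/HSPE1 and TRAP1/HSP90AB1 lie higher and AFG3L2/SPG7 and HSPD1/LONP1 lower in all p21 ON libraries, while the other 5 pairs overlap.

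Levels were compared between genes per kilobase of annotated exon. HSPD1 stood highest in p21 OFF cells with 572 ± 25.9 normalized counts per kilobase, followed by LONP1 with 424 ± 9.44, and YME1L1, HSPA9 and TRAP1 lay at 402 to 405 with overlapping ranges (mean ± SD, n = 3). CLPP had 270.0 ± 14.5, AFG3L2 168 ± 3.28, CLPX 133 ± 4.27 and HSPE1 78.5 ± 15.0, and SPG7 was lowest at 28.5 to 30.6. The place of SPG7 depends on its exon length of 35761 bases. Per kilobase of the canonical transcript, a length chosen after seeing the data, SPG7 had 340 ± 13.9 and AFG3L2 379 ± 7.40 with p21 OFF, and 343 ± 24.5 and 338 ± 16.6 with p21 ON, where their ranges overlapped. On that length HSPE1 had 257 ± 49.2 and HSPD1 1943 ± 88.1 with p21 OFF, although the proteins form one complex. With p21 ON, HSPD1, LONP1 and YME1L1 followed each other per kilobase of exon with overlapping ranges.

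Other genes of mitochondrial protein quality control were read from lists, of which the 3 genes with the lowest adjusted p-values are named. Of all genes tested 12.7% were lower and 10.5% higher, and of those with a mean of at least 500, 18.1% and 9.34%. Among 8 tested cofactors of HSPA9 and parts of the import motor, 3 were lower, 0 higher and 5 neither, with a median log2 fold change of -0.22. HSCB, a co-chaperone of iron-sulfur cluster assembly, had -0.42 (limma adjusted p = 0.0195), the J-protein gene DNAJC15 -0.20 (adjusted p = 0.0384) and DNLZ, which keeps HSPA9 soluble, -0.43 (adjusted p = 0.0474). With a library left out, 0 to 4 genes of this list were lower. The count was 0 without p21 ON replicate 1, and 1 without p21 ON replicate 3, p21 OFF replicate 1 or p21 OFF replicate 2. DESeq2, scaling by library size alone and removal of the length trend each called 1, while edgeR and limma-voom each called 2. DNLZ kept its call in 5 of 12 alternative fits over all libraries and in 1 of 6 with a library left out. For HSCB these numbers were 10 of 12 and 4 of 6, and for DNAJC15 11 of 12 and 2 of 6. GRPEL1 went from 549 ± 57.0 to 469 ± 58.2 normalized counts (mean ± SD, n = 3) with overlap between the groups (log2 fold change -0.23, limma adjusted p = 0.0876). PAM16 was listed at 0 in all libraries.

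A further 13 mitochondrial proteases and peptidases gave no call in either direction by limma, edgeR, DESeq2 or limma-voom. At an unadjusted p under 0.05 limma gave 1 as lower and 0 as higher, and the share of all genes at that threshold was not counted. PARL, a rhomboid protease of the inner membrane, stood at -0.23 on the log2 scale (limma adjusted p = 0.0523), PMPCA, a subunit of the processing peptidase that removes targeting sequences, -0.13 (adjusted p = 0.168) and LACTB -0.11 (adjusted p = 0.33). Removal of the length trend gave 2 lower calls in this list, and leaving out p21 ON replicate 3 or p21 OFF replicate 3 gave 1 each. The median of the list was -0.06. OMA1, the stress-activated protease of the inner membrane, had 314 ± 12.8 and 303 ± 42.7 normalized counts (mean ± SD, n = 3) with p21 OFF and p21 ON, and HTRA2 366 ± 37.8 and 372 ± 23.8.

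Of 8 mitochondrial genes of membrane scaffolds and other AAA proteins, 3 were lower and 0 higher, with a median log2 fold change of -0.16. The prohibitin genes PHB and PHB2, whose ring-shaped complex surrounds the m-AAA protease, had log2 fold changes of -0.40 (limma adjusted p = 0.00157) and -0.27 (adjusted p = 0.00492). C2orf47, now named MAIP1 and known to bind AFG3L2, had -0.35 (adjusted p = 0.0407). PHB and PHB2 were called in each alternative that included them, whereas C2orf47 lost its call with DESeq2, under scaling by library size alone, without the filter and in 4 of the 6 fits with a library left out (p21 ON replicates 1 and 3, p21 OFF replicates 2 and 3). PHB and C2orf47 had no length and were not part of the fit with the length trend removed.

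In the import channels of the outer and inner membrane 13 of 20 tested genes were lower and 0 higher, with a median of -0.24. TIMM10, a chaperone of the intermembrane space, went from 280 ± 47.1 to 162 ± 26.5 normalized counts (mean ± SD, n = 3), a log2 fold change of -0.79 (limma adjusted p = 0.000319). The receptor gene TOMM22 and the small channel subunit gene TOMM6 had -0.38 and -0.39 (adjusted p = 0.00199 and 0.00201). Without p21 ON replicate 1 the count of lower genes was 4, and with the length trend removed it was 7 of the 19 genes with a length, of which the main test called 12.

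Genes of general mitochondrial content were also lower in part. Of 14 such genes 6 were lower and 0 higher, with a median of -0.20, and the lowest adjusted p-values were those of the respiratory chain genes UQCRC2 (-0.26, limma adjusted p = 0.00606) and COX4I1 (-0.28, adjusted p = 0.00921) and of the matrix enzyme MDH2 (-0.20, adjusted p = 0.0228). The 6 became 2 under scaling by library size alone. With a library left out the count ran from 1 to 7, with 2 without p21 ON replicate 3 and 1 without p21 ON replicate 1. UQCRC2 kept its call in each alternative and COX4I1 in 4 of the 6 fits with a library left out. MDH2 kept its call in 3 of those 6 and lost it under scaling by library size alone. CS and SDHA were among the genes not called, at -0.06 (limma adjusted p = 0.472) and 0.007 (adjusted p = 0.944). All 14 are nuclear genes, so their mRNA levels do not count mitochondria, and mitochondria per cell were not measured. None of the 13 mitochondrially encoded mRNAs was found in the table by symbol, and they were not analysed here.

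Cytosolic and endoplasmic reticulum chaperones were lower in 10 of 11 tested genes and higher in 0, with a median of -0.31. HSPA1B, a heat-inducible Hsp70 gene, went from 816 ± 34.8 to 514 ± 11.8 normalized counts (mean ± SD, n = 3), a log2 fold change of -0.67 (limma adjusted p = 1.64e-06). How reads that fit both HSPA1B and its near-identical copy HSPA1A were counted is not known. HSPA8, the constitutive cytosolic Hsp70, and HSPH1, its exchange factor, had -0.38 and -0.32 (adjusted p = 0.0004 and 0.000851). The exception was HSPA5, the Hsp70 of the endoplasmic reticulum, with -0.13 (adjusted p = 0.12). HSP90AB1 and TRAP1, both of the Hsp90 family, had -0.31 and -0.07.

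Among 9 tested regulators of the mitochondrial stress response 3 were lower and 1 higher, with a median log2 fold change of -0.08. NRF1, an activator of nuclear genes for mitochondrial proteins, went from 400.2 ± 20.7 to 246 ± 36.6 normalized counts (mean ± SD, n = 3), a log2 fold change of -0.71 (limma adjusted p = 7.19e-05). ATF4 and CEBPB had -0.34 (adjusted p = 0.00171) and -0.24 (adjusted p = 0.0305). NRF1 and ATF4 were called in each alternative, whereas CEBPB lost its call under scaling by library size alone, with the length trend removed and without p21 ON replicate 1, p21 ON replicate 2 or p21 OFF replicate 3. The gene called higher was DDIT3, which encodes CHOP and is named here after its value was seen. It went from 258 ± 17.4 to 307 ± 7.07 normalized counts (mean ± SD, n = 3, log2 fold change 0.25, limma adjusted p = 0.0494), and DESeq2, a pseudocount of 10, the unfiltered fit, the fit with a replicate block and 5 of the 6 fits with a library left out did not call it. ATF5, a transcription factor of the mitochondrial unfolded protein response, had 692 ± 60.0 and 654 ± 34.7 (mean ± SD, n = 3, limma adjusted p = 0.484), and HSF1 stood at -0.14 on the log2 scale (limma adjusted p = 0.0935). GDF15, a cytokine released under mitochondrial stress, had 0 to 4.66 normalized counts per library, too low to be tested, and FGF21 was listed at 0.

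**Figure D4:**
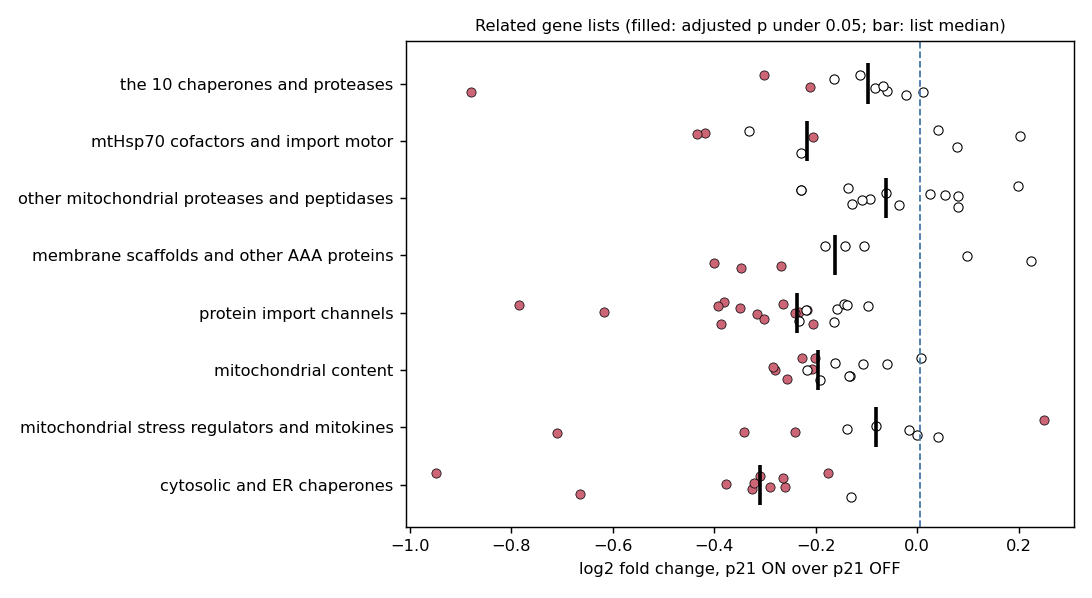
Log2 fold change, p21 ON over p21 OFF (horizontal axis), of each tested gene in 8 lists; filled points passed an adjusted p-value of 0.05, thick bars are list medians and the dashed line the median of all genes tested. The cytosolic and endoplasmic reticulum chaperones have the lowest median at -0.31 and the further mitochondrial proteases the highest at -0.06.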

How the data were processed

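The authors prepared stranded mRNA libraries, aligned single-end reads with STAR to the hg19 genome, counted reads per gene symbol with HTSeq and divided the counts by DESeq2 size factors. The deposited values are these normalized counts, a signal of 0 or above, for 6 libraries. Tool versions, gene annotation and counting settings are not given in the sources used here.

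Multiplying by a step found for each library turned 100% of its values into whole reads (tolerance 0.02). Since the table holds normalized values, the main test was limma 3.58.1 in R 4.3.3 (trend, no covariates) on log2(normalized count + 1) for the 13255 genes averaging 10 or more, adjusted by Benjamini-Hochberg. Fold changes are on that scale and understate the change of low genes. Alternatives were edgeR 4.0.16, DESeq2 1.42.0 and limma-voom (all on those reads), other scalings, pseudocounts of 0.1 and 10, other filters, a replicate block, removal of a length trend (85.6% of tested genes had a length) and each library left out. Standard errors and 95% intervals are from limma. The ratios to LONP1 and the canonical transcript length were added after seeing the data.

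Gene positions (GRCh37, equal to hg19) came from the lifted GENCODE annotation. Promoters are RefSeq windows of GRCh38.p14. The members and lists were chosen with earlier results of these data known. A listed lineage marker is not reported here. The genes named are the 10 members, the partner genes of the ratios, CDKN1A and, for each further list, the 3 genes with the lowest adjusted p-value, and others are named for their known role.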

Additional observations from a re-analysis of the deposited data

How the results depend on the processing

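The calls of HSPD1 and HSPE1 were made in all 12 alternative fits over the 6 libraries and that of HSPA9 in 11. With a library left out, 1 to 3 of the 10 genes were lower and 0 higher, with HSPE1 the 1 gene called without p21 ON replicate 3. The median log2 fold change of the 10 genes was -0.054 under scaling by library size alone, -0.14 after the length trend was taken out and -0.14 to -0.066 with a library left out. Over all genes, leaving out a library gave 695 to 1486 higher and 887 to 1660 lower, with the lowest counts without p21 ON replicate 1. Replicate numbers did not pair the libraries (correlations of deviations -0.06, -0.02 and -0.05), and the fit with a replicate block called the same number, 3, lower, and 1407 higher and 1513 lower over all genes. The 7 further lists held 8, 13, 8, 20, 9, 11 and 14 tested genes. Over all genes in the main test 12.7% were lower and 10.5% higher. Of the tested genes in these lists, 38 were lower and 1 higher. Scaling by library size alone gave 25 lower, and leaving out a library 18 to 36 lower and 0 to 1 higher. The higher call was lost (0) with DESeq2, pseudocount 10, no filter and the replicate block.

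Signs turned, without a call, for CLPX (0.021 under library size scaling, and -0.070 to 0.034 with a library left out), SPG7 (-0.16 with the length trend removed, and -0.043 to 0.057 with a library left out, among them -0.00457 and -0.00519 without p21 OFF replicates 2 and 3), EPCAM (0.024 with the length trend removed, 0.022 without p21 OFF replicate 1) and PECAM1 (-0.093 to 0.31 with a library left out). The log2 difference of HSPA9 over GRPEL1 ranged from -0.032 to 0.072 and that of YME1L1 over AFG3L2 from -0.0088 to 0.13 with a library left out. By longest transcript the p21 OFF levels ranked TRAP1 1, HSPD1 2, LONP1 4, HSPA9 5, HSPE1 8, SPG7 9 and CLPX 10, and by canonical transcript TRAP1 2, HSPA9 3, YME1L1 4, LONP1 5, SPG7 8 and CLPX 10. For these changes the cause was not tested. Depth limits HSPE1, at 60 to 179 reads, more than the other 9 chaperone and protease genes.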
